A study of Mus musculus with 14 samples.

Results

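Heads of mouse embryos with 1 intact Zcchc8 allele were compared with wild-type heads. The comparison takes the 3 libraries labelled Zcchc8+/- (HET3, HET4 and HET5) and the 5 labelled Zcchc8+/+ (WT1 to WT5), which is 8 of the 14 libraries of the series, chosen by their genotype labels alone. The other 6 libraries, labelled Zcchc8-/- (KO1 to KO6), are given beside them to show where a HET level lies. All embryos were C57BL/6J and were taken at stage E12.5. The labels name no transgene, Cre or treatment. The sources used here do not say which part of Zcchc8 is altered or whether the 3 HET libraries come from 1 litter. The design text counts embryos per genotype but does not tie a library to an embryo, so the p-values rest on the spread of these samples alone, and that spread may be technical.

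RNA was taken from the whole head, brain included, and polyadenylated RNA was sequenced with a stranded library kit. Values are FPKM, fragments scaled to transcript length and library size, for 67811 loci. A locus is the unit in which the authors tabulated them and can span several genes. Of these, 18217 loci reached 0.5 FPKM in 3 or more of the 14 libraries and were tested. In a bulk sample of a whole head, fewer cells of a type and less RNA per cell cannot be told apart.

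The protein ZCCHC8 holds together NEXT, the nuclear exosome targeting complex, in which it joins the RNA-binding protein RBM7 to the helicase MTR4, encoded in mouse by Skiv2l2. NEXT hands short, unstable nuclear transcripts to the RNA exosome, the main 3′ to 5′ RNA-degrading machine of the nucleus. Known targets are RNAs made upstream of promoters and at enhancers, extended forms of small nuclear and small nucleolar RNAs, and extended histone messages. Replication-dependent histone messages normally end in a stem-loop with no poly(A) tail, and mature small nuclear and small nucleolar RNAs also lack a tail. Selection of polyadenylated RNA therefore shows only tailed forms of these RNAs.

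The sequences below belong to decay target loci described in the results, which were chosen for their difference between KO and WT without use of the HET values. They show what kind of RNA lies at each locus, and they come from the GENCODE M21 transcripts of the mm10 genome build, written 5′ to 3′. The first set holds 3 small nuclear RNA genes, and capitals mark each match of TTTNTGG, letters like those of the binding site of the Sm protein ring, searched on the transcript strand. These letters occur in 155 of 1383 annotated small nuclear RNA transcripts (11.2%).
Rnu11 (chr4:132270080-132270213, minus strand): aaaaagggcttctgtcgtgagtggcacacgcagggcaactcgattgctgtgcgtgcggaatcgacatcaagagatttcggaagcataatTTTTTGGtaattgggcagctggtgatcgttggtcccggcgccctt
Gm23444 (chr11:83271498-83271688, plus strand): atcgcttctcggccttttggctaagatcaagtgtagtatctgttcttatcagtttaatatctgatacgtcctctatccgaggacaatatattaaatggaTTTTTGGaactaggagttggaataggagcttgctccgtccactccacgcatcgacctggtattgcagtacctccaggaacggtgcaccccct
Gm22614 (chr3:96488729-96488893, plus strand): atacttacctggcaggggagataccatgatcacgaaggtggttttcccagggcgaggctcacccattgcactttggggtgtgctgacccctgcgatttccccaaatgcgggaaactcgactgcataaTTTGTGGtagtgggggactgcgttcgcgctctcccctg
Rnu11 encodes the minor spliceosome's U11 RNA, Gm23444 is a copy of the U2 type and Gm22614 a copy of the U1 type. The transcripts of Gm23444 and Gm25360, another locus described below, were identical at 188 of 191 positions. Fragments from these bases could match both copies, and how they were assigned was not tested. The measured Gm23444 locus spans 1016 bases, so much of it lies outside the compared sequence.

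The second set shows the processing site of 3 histone genes, 26 bases each. Capitals mark the match to the base pattern of the histone stem-loop, searched on the transcript strand, which occurred in 46 of 72 histone coding transcripts (63.9%) and in 98 of 58797 coding transcripts of all genes (0.167%).
Hist1h2bp (gene at chr13:21787461-21789213, plus strand): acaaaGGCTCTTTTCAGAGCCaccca
Hist1h4i (gene at chr13:22040636-22041362, minus strand): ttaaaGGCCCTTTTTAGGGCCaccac
Hist2h2aa1 (gene at chr3:96245497-96246082, plus strand): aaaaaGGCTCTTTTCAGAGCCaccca
Of the 2 Hist1h2bp transcripts in the annotation, 1 holds the site. An untailed message of these genes ends just past the capitals.

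One HET library stood apart. Xist, the RNA that coats the inactive X chromosome, was at 109 FPKM in HET4, a female level, yet HET4 also held RNA of the Y-linked genes Ddx3y (0.406 FPKM), Uty (0.207), Kdm5d (0.335) and Eif2s3y (0.840). Their summed level was 2.69% of the male median, against at most 0.123% in any other library with a female Xist level. HET3 was male and HET5 female by the same genes. HET4 also had 1 unnamed locus of 99 bases on the X chromosome (chr X, 66673672 to 66673770) listed at 1124050 FPKM and at 0 in every other library, which was not tested. Values without HET4 are given below for some results only, and others can also move without it. Total depth is unknown because the files hold no counts. Relative depth, read from the lowest FPKM steps and set to 1 in WT1, was 1.0 to 1.20 in WT, 1.23 to 1.32 in HET and 1.15 to 1.49 in KO libraries. Across all tested loci, the log2 values of WT and HET libraries correlated at Pearson r of 0.972 to 0.979, pairs of WT libraries at 0.971 to 0.976, and WT with KO libraries at 0.904 to 0.925, as a description over loci that share each library. The tissue's markers were present in every HET library, for example Nefl of neurons at 66.0 to 74.2 FPKM, Myod1 of muscle at 6.76 to 8.41 and Dct of pigment cells at 3.77 to 3.99.

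Zcchc8 RNA in HET heads lay between the other genotypes. The locus (chr5:123698294-123721100) was at 40.8, 38.1, 40.8, 36.6 and 42.3 FPKM in WT1 to WT5, and at 26.0, 24.0 and 27.2 in HET3, HET4 and HET5. The KO libraries had 9.27 to 20.6 with a median of 15.1, so the 3 groups did not overlap. The HET mean was 64.8% of the WT mean, and it lay at 25.7 FPKM ± 1.64 (SD, n = 3). The midpoint of the WT and KO means in FPKM was 27.6. The test was made against the midpoint of WT and KO on the log2 scale. It found no difference beyond the spread (log2 difference 0.07, SE 0.16, limma-trend adjusted p = 0.892), with a 95% interval of -0.27 to 0.41.

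Against WT, the log2 difference of Zcchc8 was -0.62 (SE 0.18, 95% interval -1.01 to -0.24). An exact two-sided permutation test on the FPKM scale had p = 0.0179, which is the smallest that 56 splits of 5 and 3 libraries allow. In the limma-trend fit of all 14 libraries the unadjusted p was 0.0036 and the adjusted p was 1, in a fit whose estimate of the spread includes the KO libraries, at 15.5 FPKM ± 3.91 (SD, n = 6). With the WT and HET libraries alone in the fit, the same difference had a 95% interval of -0.76 to -0.49 and a limma-trend adjusted p of 0.0177. Without HET4 the difference was -0.57.

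The partners of ZCCHC8 were close to their WT levels. Rbm7 was at 28.9, 30.0 and 30.0 FPKM in the HET libraries and at 28.0 to 31.2 in WT, with a median of 29.6, a log2 difference of 0.01 (95% interval -0.12 to 0.14). Skiv2l2 was at 34.4, 34.4 and 34.9 in HET and at 35.6 to 39.4 in WT, with a median of 36.7. All 3 HET libraries were below all 5 WT libraries for Skiv2l2, by a log2 difference of -0.10 (SE 0.06, limma-trend unadjusted p = 0.122, adjusted p = 1). In KO it was at 35.2 to 42.7, across the WT range.

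**Figure D1:**
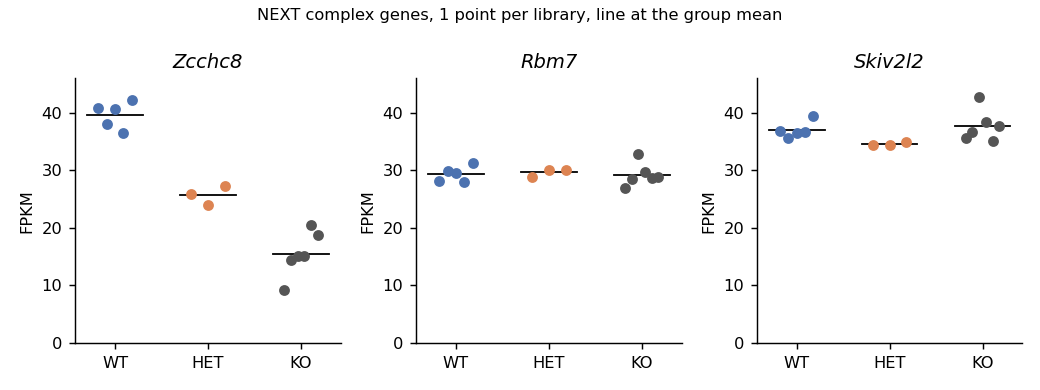
FPKM of the NEXT complex genes Zcchc8, Rbm7 and Skiv2l2 (vertical axes) in each library, grouped by genotype (WT n = 5, HET n = 3, KO n = 6), with a line at each group mean. The Zcchc8 points fall into 3 separate bands, with HET between 24.0 and 27.2, while Rbm7 and Skiv2l2 lie near the same level in all genotypes.

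Few loci were called different between HET and WT heads. Of 18217 loci, 1 was called higher (0.00549%) and 0 lower at a limma-trend adjusted p under 0.05. At an unadjusted p under 0.05 the counts were 154 higher (0.845%) and 200 lower (1.10%), or 354 in all (1.94%). These calls come from a fit whose estimate of the spread includes the KO libraries. With only the WT and HET libraries in the fit, 639 loci had an unadjusted p under 0.05. Both counts are below the share of 0.05 of loci that would fall under this threshold by chance if no locus differed. Few calls therefore do not show that loci are unchanged, and the reason for the low counts was not tested. FPKM ranges that did not overlap were found at 192 loci with all HET above all WT libraries (1.05%) and at 260 with all HET below (1.43%). In the fit of all 14 libraries, KO was called higher than WT at 3463 loci (19.0%) and lower at 1022 (5.61%). The comparisons of HET and of KO with WT share the WT libraries. Precision differed between loci. The 95% interval of the HET difference lay within 2-fold either way at 16142 loci (88.6%), at 12940 of 13382 protein-coding loci (96.7%) and at 1076 of 2004 loci without a gene name (53.7%). Without HET4, 1 locus was again called higher and 0 lower.

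The called locus was a low one that passed the filter only through its HET values. It has no gene name, spans 218 bases (chr17:79554051-79554268) and lies 57595 bases upstream of the start of Rmdn2, the nearest coding gene. It was at 1.99, 0.629 and 0.542 FPKM in HET3, HET4 and HET5 and listed at 0 in all WT and all KO libraries. The limma-trend adjusted p was 0.00366. Because a locus that is 0 elsewhere could enter the test only by being high in HET, its call is a description of these 3 libraries. The call was lost with pseudocounts of 0.5 and 1 (limma-trend adjusted p = 0.0669 and 0.156), without HET3 (0.0776), with the replicate number as a block (0.438) and with only WT and HET libraries under a filter of their own (0.0512). It has no value among loci of at least 300 bases, under the stricter filter and in the authors' matrix. Over all 67811 loci, 9 were above 0 in every HET library and at 0 in every other library, 2 of them without a gene name.

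Loci with names and the smallest p, none of which passed the adjusted test, are given next, with log2 HET differences of -0.89 to 1.06 among those described. Among those higher in HET, Alas1, which encodes the first enzyme of heme synthesis, was at 40.4, 38.9 and 40.4 FPKM in HET against 33.3 to 37.3 in WT and 30.5 to 35.7 in KO (log2 difference from WT 0.20, limma-trend unadjusted p = 0.0023). Arrdc3, an arrestin-like adaptor, was at 30.5, 31.8 and 41.3 against 25.1 to 28.3 in WT (log2 0.36, SE 0.09). Auts2, a nuclear regulator expressed in neurons, was at 46.4, 63.0 and 61.6 in HET against 41.9 to 50.7 in WT, so that HET3 lay inside the WT range. For Alas1 and Arrdc3 the groups did not overlap.

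Clone-named transcripts of unknown role were also in this group. The locus of RP23-99B10.1 and RP24-336D11.2 had the difference of 1.06 (SE 0.33) and was at 2.18, 0.548 and 0.936 FPKM in HET against 0.285 to 0.595 in WT, with HET4 inside the WT range. RP24-297N9.8 was at 19.8, 20.8 and 22.9 in HET against 16.8 to 20.3 in WT, and overlapped. RP24-423J19.1 was at 2.26, 1.65 and 2.41 FPKM in HET, above 1.15 to 1.58 in WT, and at 17.3 to 24.2 in KO (log2 HET difference 0.57, SE 0.13). RP23-188J8.3 was at 0.958, 0.922 and 1.20 in HET against 0.299 to 1.0 in WT and 2.63 to 4.60 in KO. CT7-BM104O10.3 was at 2.58, 2.80 and 2.95 in HET against 1.67 to 1.99 in WT, with KO at 1.44 to 2.89. RP24-423J19.1 and CT7-BM104O10.3 had no overlap between HET and WT, and for RP23-188J8.3 the WT2 library reached into the HET range. RP24-423J19.1 and RP23-188J8.3 were called higher in KO.

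Among loci lower in HET, Hps5, a subunit of a complex for lysosome-related organelles, was at 9.76, 9.22 and 9.59 FPKM against 10.4 to 12.8 in WT and 9.05 to 10.1 in KO (log2 HET difference -0.25, limma-trend unadjusted p = 0.0021). Nek3, a kinase of the NIMA family, was at 3.03, 2.91 and 2.73 against 3.36 to 4.15 in WT. Cdadc1, a protein with a cytidine deaminase domain, was at 8.84, 8.92 and 8.48 against 9.57 to 10.1 in WT. For these 3 genes every HET library was below every WT library. Egfem1 was at 2.98, 3.44 and 3.72 in HET and 4.04 to 5.07 in WT. The histone genes Hist1h2ao (3.72, 3.42 and 3.06 in HET against 4.68 to 7.68 in WT) and Hist1h2bg (2.09, 3.05 and 2.09 against 2.86 to 4.39) were also in this group. Hist1h2ao did not overlap between the groups, with a log2 difference of -0.89 (SE 0.26), and Hist1h2bg did. RP23-349B9.1 was at 2.30, 2.13 and 2.31 in HET against 2.85 to 3.39 in WT. The locus of the pseudogene Vmn2r-ps19 was at 2.25, 2.05 and 2.63 against 2.69 to 3.24. Gm10549 was at 0.974, 0.984 and 1.20 against 1.17 to 1.64 in WT and 3.60 to 5.14 in KO. Of these, Gm10549 alone overlapped.

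RNA that accumulated in KO heads stayed near its WT level in HET heads. Loci were taken that were called higher in KO than in WT by 2-fold or more and averaged 1 FPKM or more in KO, which gave 1484. Their choice used KO and WT values and no HET value, so the levels below are a description. The median over these loci was 0.143 to 0.189 FPKM in the WT libraries, 0.191 in HET3, 0.172 in HET4 and 0.201 in HET5, and 1.41 to 2.24 in the KO libraries. HET3 and HET5 lay just above the WT range and HET4, the library with Y-linked RNA, inside it. The relative depth of the HET libraries was also above that of WT, as given above, and its part in these medians was not tested. The highest HET library was below the lowest KO library at 1405 of the 1484 loci, and the HET mean was nearer to WT than to KO on the log2 scale at 1481.

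The 635 of these loci without a gene name were close to silent in both genotypes with an intact allele. Their median was 0.0368 to 0.0433 FPKM in WT, 0.0465, 0.0417 and 0.0453 in HET3 to HET5 and 1.15 to 2.05 in KO. HET3 and HET5 were again just above the WT range and HET4 inside it, while the median log2 difference of each HET library from the WT mean was between -0.01 and 0. The 849 loci with names were at 0.326 to 0.400 in WT, 0.372, 0.335 and 0.384 in HET and 1.67 to 2.50 in KO. At the 679 loci that differed by at least 3 on the log2 scale between KO and WT, the HET medians were 0.0352, 0.0249 and 0.0314 against 0.0222 to 0.0286 in WT. HET3 and HET5 lay above the WT range there, and HET4 inside it.

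**Figure D2:**
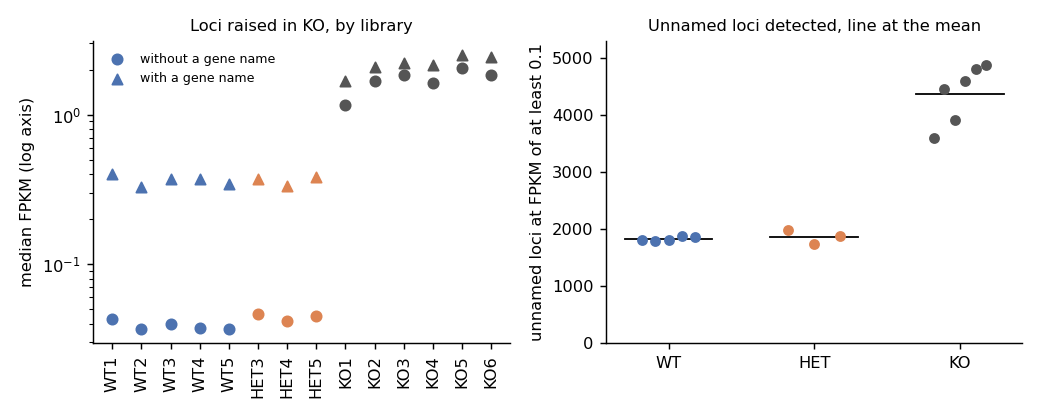
Left, median FPKM (log axis) over the 1484 loci raised in KO for each library, as circles for the 635 loci without a gene name and triangles for the 849 with one. Right, number of loci without a gene name at an FPKM of at least 0.1 per library, with a line at the group mean. In both panels the HET points lie in or near the WT range, and the KO points lie above, from 3602 to 4882 loci in the right panel against 1744 to 1983 in HET.

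The number of loci with RNA did not differ beyond the spread between HET and WT. Loci at an FPKM of at least 0.1 numbered 20642, 19927 and 20448 in HET3, HET4 and HET5, a mean of 20339 ± 370 (SD, n = 3), against 20413 ± 178 (SD, n = 5) in WT. The difference was -73.8 loci (exact two-sided permutation p = 0.75), and 132.2 without HET4 (exact permutation p = 0.429). Of loci without a name, 1983, 1744 and 1882 were at that level in HET against 1789 to 1879 in WT. HET3 was above the WT range and HET4 below it.

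Each locus was also set against the midpoint of WT and KO on the log2 scale, the level that would lie equally far from both. HET was below the midpoint at 2069 loci (11.4%) and above it at 69 (0.379%), by limma-trend adjusted p. Of the 3463 loci called higher in KO, HET was called on the WT side of the midpoint at 2043 and on the KO side at 0, and its mean was nearer to WT at 3413 (98.6%). Of the 1022 loci called lower in KO, it was called on the WT side at 41 and on the KO side at 0, and its mean was nearer to WT at 959 (93.8%). The falls in KO were small, with a median log2 difference of -0.30 against 2.04 for the rises, so the midpoint lay close to WT there. These counts share the WT and KO values with the choice of loci and are given without a further test. The 69 loci above the midpoint became 21 without HET4, 22 without HET3, 41 without HET5, 42 without WT1 and 38 without WT5, and the 2069 below became 1583 without HET4.

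Unnamed loci, which include RNAs made next to genes, were examined by distance to the nearest named locus. Of 2004 tested, 43 were higher and 34 lower in HET at an unadjusted p under 0.05 (3.84% in all, beside 1.94% of all tested loci), and 33 and 23 had no overlap of FPKM ranges with all HET above or below WT (1.65% and 1.15%, beside 1.05% and 1.43% of all tested loci). The median log2 difference of the class was 0 in HET and 2.25 in KO. Among the 935 that lie under 1 kb from a named locus, HET was called below the midpoint at 631 (67.5%, beside 11.4% of all tested loci), and 766 were higher in KO (81.9%, beside 19.0%). Their median level was 0.0243 to 0.0324 FPKM in WT, 0.0303 to 0.0355 in HET and 0.719 to 1.32 in KO. Because the filter counts the KO libraries, a locus low in WT and HET could enter the test only by being high in KO. The shares called higher in KO or below the midpoint are therefore partly set by entry, here and in the classes below. A filter on the WT and HET libraries alone kept 15177 loci. The corresponding counts below the midpoint were 90 of 214 for loci that overlap a named locus, 137 of 404 at 1 to 10 kb and 135 of 451 beyond 10 kb. Beyond 10 kb only 33.7% of the 95% intervals lay within 2-fold, so a change of that size could not be seen there at most loci.

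Single unnamed loci with the largest KO difference showed the same levels. The locus of 14504 bases at chr2:75644464-75658967, which ends 294 bases upstream of the start of Hnrnpa3, a gene for an RNA-binding protein, was at 0.250, 0.178 and 0.0751 FPKM in HET. WT libraries had 0.0762 to 0.312 and KO libraries 11.7 to 22.1. The locus at chr6:51167479-51172730 was at 0.0381, 0.0544 and 0.0256 in HET, 0.0143 to 0.0816 in WT and 5.76 to 11.0 in KO. The locus at chrX:94865905-94866105 was listed at 0 in every WT and HET library and was at 2.77 to 11.0 in KO. In these 3 loci HET overlapped WT and lay far below every KO library. The fourth, of 170 bases at chr2:70826578-70826747 and 850 bases upstream of the start of the kinase gene Tlk1, differed from them. It was at 0.620 FPKM in HET3, 0 in HET4 and 1.63 in HET5, where all WT libraries were listed at 0 and KO libraries had 0.813 to 14.8 (limma-trend unadjusted p = 0.0211, adjusted p = 1).

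**Figure D3:**
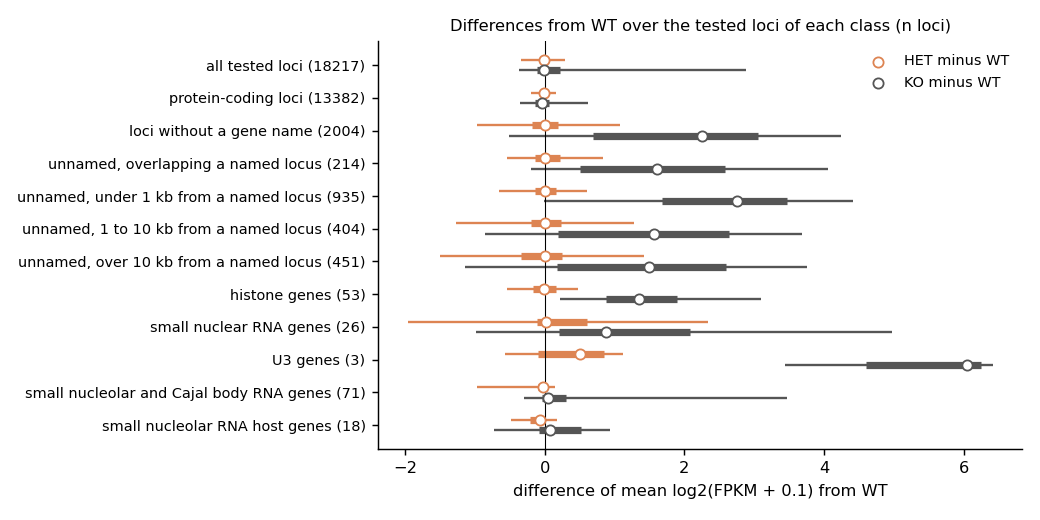
Log2 difference of group means from WT (horizontal axis, log2 of FPKM + 0.1) over the tested loci of each class, for HET and KO. Circles are medians, thick bars span the middle 50% of loci and thin bars the 5th to 95th percentile. HET medians lie between -0.06 and 0.02 in all classes but U3, which holds 3 loci and has 0.51, while KO medians are 2.76 for unnamed loci under 1 kb from a named locus and 6.04 for U3.

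Histone messages with tails lay near their WT levels in HET heads. Of 53 tested histone loci, 1 was higher and 3 were lower in HET at an unadjusted p under 0.05 (7.55% in all, beside 1.94%), and 1 and 3 had no overlap (1.89% and 5.66%, beside 1.05% and 1.43% of all tested loci). The median log2 difference was -0.00 in HET and 1.35 in KO, where 40 were called higher (75.5%, beside 19.0%). Several of these loci share the coordinate range chr13:21746911-22042944, and copies of histone genes are near-identical, so fragments may be split between them. HET was called below the midpoint at 23 of the 53 (43.4%, beside 11.4%).

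Among single histone genes, Hist1h2bp, an H2B gene, was at 0.187, 0.258 and 0.306 FPKM in HET, 0.131 to 0.338 in WT and 9.50 to 17.7 in KO. Hist2h2aa1, an H2A gene, was at 0.285, 0.160 and 0.237 in HET, 0.193 to 0.271 in WT and 1.85 to 3.53 in KO. Both overlapped WT in HET and were apart from KO. The locus of the H4 genes Hist1h4i, Hist1h4k and Hist1h4n with Prss16 was at 25.2, 29.5 and 28.9 FPKM in HET against 17.4 to 22.1 in WT and 302 to 584 in KO. There all 3 HET libraries were above all WT libraries, by a log2 difference of 0.47 (SE 0.16, limma-trend unadjusted p = 0.0113, adjusted p = 1), in a locus whose KO difference was 4.48. Hist1h2ai was at 1.03, 2.41 and 2.15 in HET and 0.512 to 1.73 in WT, with HET3 inside the WT range.

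Small nuclear RNA loci were measured less precisely. Of 26 tested, 1 was higher and 0 were lower in HET at an unadjusted p under 0.05 (3.85% in all, beside 1.94% of all tested loci). None was apart, and 9 were called higher in KO (34.6%, beside 19.0%). Their median level was 0.262 to 2.55 FPKM in WT, 0.458 to 3.00 in HET and 2.97 to 7.71 in KO, with HET5 above the WT range and within that of KO. Their median log2 difference was 0.02 in HET and 0.88 in KO, and 26.9% of the HET intervals lay within 2-fold. Rnu11, whose sequence is given above, was at 0, 0 and 0.831 FPKM in HET3, HET4 and HET5. In WT it was at 0 in 4 libraries and 1.97 in WT3, and in KO at 16.8 to 67.5. Gm23444, the copy of the U2 type, was at 0.0556, 0 and 0.0223 in HET, 0 to 0.0487 in WT and 3.03 to 8.67 in KO. Its near-identical copy Gm25360 was at 1.72, 2.88 and 6.45 in HET, 0.390 to 11.1 in WT and 15.7 to 34.9 in KO. Gm22614, of the U1 type, was at 0.0760, 0.0713 and 0.0477 in HET, 0.0109 to 0.146 in WT and 1.05 to 1.53 in KO. In all 4 genes the HET values overlapped the WT range and lay below every KO library.

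Of the RNAs of the nucleolus, 2 of 3 tested U3 loci were far below their KO level in HET. Small nucleolar RNA loci as a class differed little between genotypes, but 55 of the 71 tested carry several gene names. The level of such a locus can include RNA of its other genes. The U3 genes guide early cuts of ribosomal RNA. Rnu3b4 was at 0, 0 and 0.187 FPKM in HET, at 0 in all WT and at 5.64 to 13.7 in KO, and Rnu3b1 was at 0.108, 0 and 0 in HET, 0 to 0.311 in WT and 8.56 to 19.1 in KO. Both genes are listed with 1 shared coordinate range. The other tested U3 locus, Rnu3a, was at 0.640, 0.687 and 4.73 in HET, 0 to 5.60 in WT and 3.26 to 7.90 in KO. For Rnu3a all 3 groups overlapped, and it was not called in KO. Of 71 tested loci for small nucleolar or Cajal body RNAs, guides for the chemical marking of other RNAs, 0 were higher and 1 was lower in HET at an unadjusted p under 0.05. This is 1.41% in all, beside 1.94% of all tested loci. In KO, 14 were called higher (19.7%, beside 19.0% of all tested loci). All HET libraries were below all WT libraries at 3 of the 71 (4.23%, beside 1.43% of all tested loci) and above them at 0. The median level of the class was 54.0 to 59.7 FPKM in WT, 52.7 to 59.9 in HET and 61.2 to 68.9 in KO. HET was called below the midpoint at 7.04%, beside 11.4%. The single genes that follow were chosen for their KO difference. Snora20 and Snord118 were listed at 0 in all WT and HET libraries. In KO, Snora20 ranged from 0 in KO4 to 33.5 and Snord118 from 0 in KO1 and KO2 to 12.2. Snora16a was at 11.4, 5.90 and 41.8 in HET, 9.69 to 22.7 in WT and 63.1 to 148 in KO, so HET4 was below and HET5 above the WT range. Scarna2 was at 2.15, 1.47 and 1.63 in HET and 0.847 to 2.80 in WT. Of 18 host genes, whose introns hold such RNAs, 0 were higher and 0 lower at an unadjusted p under 0.05, and Snhg8 was at 44.1, 42.7 and 43.0 in HET against 39.6 to 52.5 in WT.

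**Figure D4:**
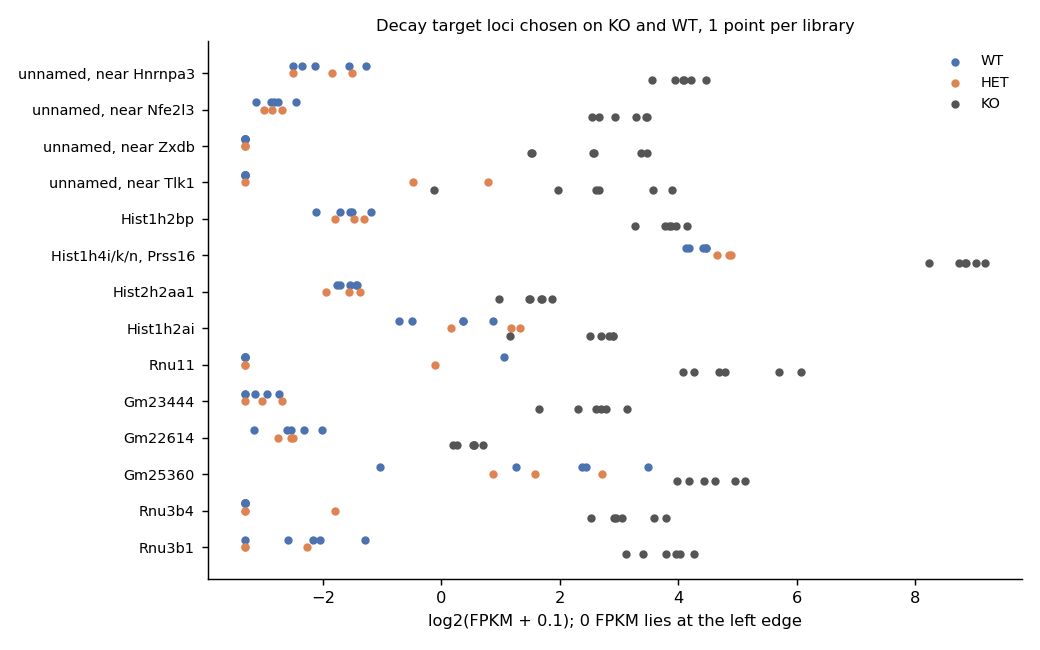
Level of 14 decay target loci in each library on the scale of log2(FPKM + 0.1), with 1 point per library coloured by genotype, where 0 FPKM lies at the left edge. The loci were chosen for the KO difference. HET points lie among or near the WT points in most rows. At the unnamed locus near Tlk1, HET3 and HET5 are apart from WT, and at Rnu3b4 HET5 is. At Hist1h2ai, HET4 and HET5 lie above the WT points, at 2.41 and 2.15 FPKM. At the H4 locus, HET lies between 25.2 and 29.5 FPKM, above all WT libraries.

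The machinery around NEXT was compared as lists. None of the 12 core exosome genes passed an unadjusted p of 0.05 in HET, their median log2 difference was -0.03 (-0.00 over all tested loci), and all 12 intervals lay within 2-fold. Exosc3, a cap subunit, was at 22.4, 26.2 and 22.5 FPKM in HET against 23.9 to 26.5 in WT. Of 14 loci of other adaptors and cofactors of nuclear decay, 2 were lower at an unadjusted p under 0.05 (14.3%, beside 1.10% of all tested loci) and none passed the adjusted test. The median log2 difference of this list from the WT mean was -0.06 to -0.05 in the HET libraries, all below the WT range of -0.03 to 0.04. Srrt, which encodes the cap-binding partner ARS2, was at 108, 93.3 and 104 in HET, 102 to 125 in WT and 129 to 155 in KO. Mphosph6, an exosome cofactor, was at 16.8, 17.1 and 17.1 in HET against 17.5 to 20.4 in WT, with no overlap (log2 -0.17, limma-trend unadjusted p = 0.0297). Zcchc7, the RNA-binding subunit of the related TRAMP complex, was at 9.33, 7.55 and 8.59 against 9.30 to 10.7. Of 12 loci for histone 3′ end processing, 1 was higher at an unadjusted p under 0.05 (8.33%, beside 0.845% of all tested loci). It was Lsm10 of the U7 particle, at 13.9, 14.4 and 13.4 against 12.4 to 13.5 in WT.

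Telomerase was included because its RNA, Terc, is also trimmed at its 3′ end in the nucleus. The Terc locus, shared with RP23-404J7.3, was at 1.83, 1.17 and 1.92 FPKM in HET, 1.15 to 1.85 in WT and 6.57 to 11.5 in KO. HET overlapped WT, with a log2 difference of 0.16 (95% interval -0.26 to 0.58). Tert, the catalytic subunit, was at 4.30, 3.90 and 3.86 in HET against 3.99 to 5.17 in WT. Nop10, a protein of the same particle, was at 35.5, 38.0 and 37.2 against 32.6 to 38.3 in WT and 39.6 to 49.4 in KO. None of the 12 telomerase loci and none of the 10 telomere capping genes passed an unadjusted p of 0.05 in HET, and all intervals of both lists lay within 2-fold.

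Stress and signalling lists showed no called locus. Of 18 interferon and RNA sensor loci, 0 were higher and 1 lower in HET at an unadjusted p under 0.05 (5.56% in all, beside 1.94% of all tested loci). In KO, 8 were called higher (44.4%, beside 19.0%) and 1 lower. Usp18, a protease for the ubiquitin-like modifier ISG15, was at 0.157, 0.386 and 0.601 FPKM in HET, 0.377 to 0.629 in WT and 1.01 to 1.81 in KO. The locus of Eif2ak2, the double-stranded RNA sensor PKR, with Gpatch11 was at 11.6, 11.3 and 9.98 in HET against 11.5 to 12.7 in WT. Of 20 p53 target loci none passed an unadjusted p of 0.05. Of 23 immediate early loci, 1 was lower at that threshold (4.35%, beside 1.10% of all tested loci). It was Cyr61, a secreted matrix protein, at 10.3, 10.9 and 11.2 in HET against 11.4 to 22.0 in WT. Of 50 tested loci within 1 Mb of Zcchc8, 0 were higher and 1 lower at an unadjusted p under 0.05 (2% in all, beside 1.94%), with a median log2 difference of -0.02.

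Cell type marker lists differed little between HET and WT. For each library the median difference of a list from the WT mean was taken on the log2 scale. In HET it was 0.02 to 0.04 for neural progenitors, -0.05 to 0.13 for postmitotic neurons, -0.05 to 0.01 for head mesenchyme, -0.06 to 0.05 for surface epithelium, -0.05 to 0.08 for choroid plexus, -0.17 to 0.03 for cartilage and bone, and -0.18 to 0.18 for erythroid cells. All of these lay inside the range of the WT libraries. For endothelial cells it was -0.12 to 0.04, with HET3 and HET4 below the WT range of -0.05 to 0.11. It was -0.05 to 0.06 for retina and pigment cells, -0.10 to 0.16 for the pituitary and -0.02 to 0.04 for myeloid cells, with 1 HET library outside the WT range in each of the first and second of these. Of the 203 tested marker loci of all 13 cell type lists, counted with repeats, 1 was higher and 0 were lower in HET at an unadjusted p under 0.05, beside 1.94% of all tested loci. That locus was Alpl, an enzyme of bone mineralization, at 10.6, 10.3 and 9.75 FPKM in HET against 8.14 to 9.79 in WT and 6.68 to 7.50 in KO, with HET5 inside the WT range.

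Lens and muscle lists, which were low in most KO libraries, were not low in HET. The 14 tested crystallin loci, which encode the main proteins of the lens fibre, had medians of 0.60 in HET3, 0.50 in HET4 and -0.17 in HET5, against -0.32 to 0.21 in WT and -2.14 to 0.02 in KO. HET3 and HET4 were above the WT range and HET5 inside it. Cryba4 was at 10.5, 9.89 and 5.59 FPKM in HET, 4.60 to 7.89 in WT and 0.853 to 5.91 in KO. Crygc was at 3.41, 2.65 and 2.75 in HET against 1.70 to 2.60 in WT, with no overlap, and 0.553 to 2.38 in KO. None of the 14 passed an unadjusted p of 0.05 in HET, and 11 were called lower in KO, beside 5.61% of all tested loci. Only 14.3% of the HET intervals for crystallins lay within 2-fold. The 18 skeletal muscle loci had medians of 0.23, 0.03 and -0.20 in HET, -0.43 to 0.49 in WT and -2.31 to 0.07 in KO. Myod1, the myogenic regulator, was at 8.41, 8.09 and 6.76 in HET and 4.93 to 8.74 in WT, and Csrp3, a muscle LIM protein, was at 1.59, 1.45 and 1.10 in HET and 0.770 to 1.93 in WT. Of all lens loci in the files, 2 of 17 were at 0 in every HET library, and of the muscle loci 1 of 24.

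**Figure D5:**
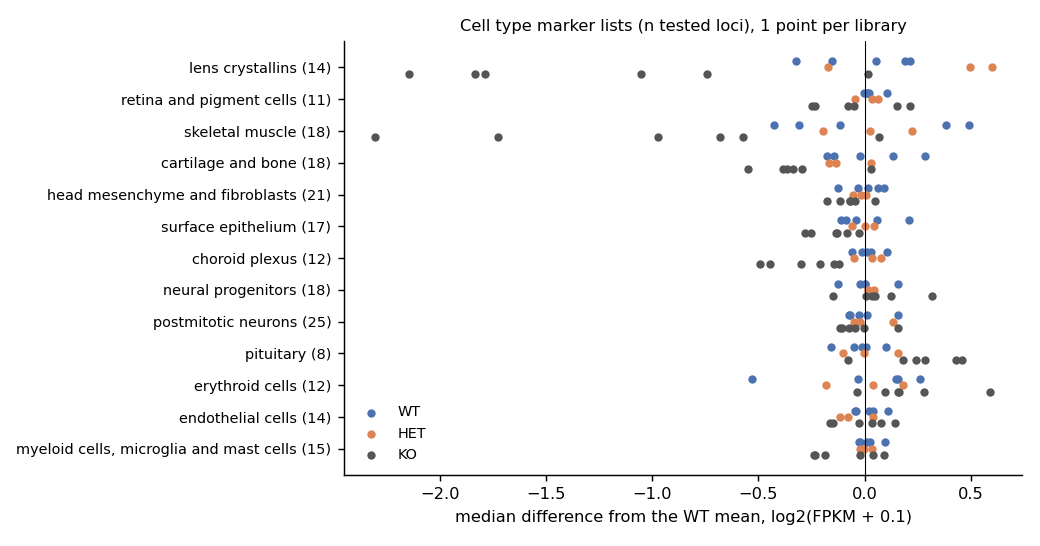
Median log2 difference from the WT mean over the tested loci of each cell type list (number in brackets), 1 point per library. The HET points lie among the WT points in most lists, with the lens in HET3 and HET4 above them at 0.60 and 0.50, and the KO points for lens and muscle reach -2.14 and -2.31.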

How the data were processed

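Polyadenylated RNA of whole E12.5 heads was measured in 5 WT, 3 HET and 6 KO libraries. The authors deposited FPKM values per library from Cuffdiff, per the file headers, and a matrix of log2 FPKM values, used here only as an alternative. Tools in the submitters' processing notes are TopHat2 2.1.0, FastQC 0.10.0, Cuffdiff and Partek, with the build mm10. The sources used here give neither gene models nor strand setting. No counts are held in the files, so depth is unknown and no sampling interval is given.

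The scale of analysis was log2(FPKM + 0.1), on which differences of low loci shrink. Loci reaching 0.5 FPKM in 3 or more of 14 libraries were fitted with limma-trend (limma 3.58.1, R 4.3.3, robust moderation), with a mean per genotype and Benjamini-Hochberg adjustment over all 18217 loci at 0.05. The fit was tested on simulated data in which KO libraries had the WT mean and the spread of WT and HET libraries. That test therefore does not cover a wider spread in KO or a KO difference. Exact permutation tests went through all splits in Python 3.11.15 (pandas 2.3.3, numpy 2.4.6), and figures used matplotlib 3.10.9. Coordinates are mm10, and 84.7% of tested loci with a single name matched GENCODE M21. The lists cover NEXT, exosome, adaptor, histone end, telomere, stress, sex-linked and cell type genes. Named loci are Zcchc8, the NEXT genes, calls in HET, the named loci with the smallest p each way, the 4 loci of each decay class with the largest KO difference, and up to 3 per list with the smallest p. Not every such locus is described, and some are not reported here. Members and lists were chosen with earlier results of these data known. Alternatives were other pseudocounts, filters, scalings, a replicate block, sex, library weights, WT and HET alone, and leaving out each library. Added after seeing the data were loci with at most 1 name, loci of at least 300 bases, a filter on WT and HET alone and the authors' matrix.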

Additional observations from a re-analysis of the deposited data

Results flagged for a closer look

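In 220 groups of 4 to 10 libraries (WT or KO, for each named locus and summary value), a single library lay far from the others of its genotype in 13 cases, where chance gives about 1 in 20. HET, with 3 libraries, could not be examined this way. Of the decay target loci, WT3 was the highest WT library for Rnu11 at 1.97 FPKM with all others at 0, WT5 the highest for Snora16a at 22.7, and KO3 the lowest KO library for Hist1h2ai at 2.14, inside the HET range. Of the loci with the smallest p, KO5 was the highest KO library for RP23-188J8.3 at 4.60. Among WT libraries, WT4 was the highest for Lsm10 at 13.5 and for a locus listed as Hes1 at 0.0581, and the lowest for Klf6 at 14.1. WT5 was the highest for the locus of Eif2ak2 and RP24-298J16.4 at 5.67, and WT1 the lowest for Mlana at 0.451. The 16 symbols of the neural progenitor list, which holds Hes1, match 19 loci. Several loci can thus carry 1 name, and the value near 0 need not be the level of the gene Hes1. Among KO libraries, KO6 was the highest for Usp18 at 1.81, KO2 for Crygc at 2.38 and for Mlana at 0.912, and KO1 for the locus of Alx1 and RP23-163J2.2 at 8.27.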

How the results depend on the processing

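The number of loci called higher in HET than in WT, 1 as reported, was 0 with pseudocounts of 0.5 or 1, with the filter raised to 1 FPKM, with the replicate block, among loci of at least 300 bases and in the authors' matrix. It was 2 without a filter, with library weights and with only WT and HET libraries, and 0 to 2 on leaving out each library. With their own filter the WT and HET libraries gave 1, a different unnamed locus (chr2:178625624-178625868). The number called lower, 0 as reported (200 at an unadjusted p under 0.05), was 1 with only WT and HET libraries, with or without their own filter, and in the authors' matrix, and 0 to 1 on leaving out each library. Unadjusted counts in either direction were 240 to 966 over the alternatives other than the unfiltered set.

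Zcchc8 stayed lower in all 22 alternatives, by -0.73 to -0.57 on the log2 scale. Its adjusted p passed only with WT and HET libraries alone, where -0.62 had 0.0177 by limma-trend, or 0.00966 with their own filter, and the other values were 0.209 to 1.

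Loci above the midpoint of WT and KO, 69 as reported, were 42 with the filter at 1 FPKM, 111 with a common median, 432 after quantile normalization, 39 with the replicate block, 532 with library weights, 5 in the authors' matrix and 21 to 71 on leaving out each library. Loci below it, 2069 as reported, were 974 after quantile normalization. In the authors' matrix, which leaves blank loci out, they were 921.

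The median HET difference of unnamed loci, 0 as reported, was -0.037 after quantile normalization, -0.065 with the replicate block and -0.017 with the filter on WT and HET. The authors' matrix gave 0.096, beside 0.035 for the median over all its loci. That of histone and small nuclear RNA loci moved by less than the spread between WT libraries. The difference in detected loci was -225.3 to 132.2 on leaving out each library, and its sign turned without HET4. Among single loci, the sign turned by more than the standard error for Usp18 (-0.69 to 0.032), Rnu11 (-0.87 to 1.07) and Snora16a (-0.70 to 0.70) on leaving out each library, and for Gm22614 in the authors' matrix (0.22). The cause was not tested.

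Whether replicate numbers shared by WT and HET pair the libraries cannot be told, as only 3 pairs share a number. Deviations of equally numbered libraries correlated at 0.10, 0.00067 and 0.0508, and those of differently numbered ones at -0.12 to 0.11. With the number as a block, 453 loci had an unadjusted p under 0.05 where 354 had without. With 3 HET libraries and unknown depth, many loci near 0 FPKM and most small nuclear RNA loci carry wide intervals in the fit of all 14 libraries. Differences under 2-fold could not be seen there in that fit. The width depends on the libraries fitted. The interval of Snora20 was -3.28 to 3.28, and -0.32 to 0.32 with only WT and HET libraries. That of Rnu11 was -2.12 to 2.51, and -2.90 to 3.29 with only WT and HET libraries.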
